A study of Mus musculus with 9 samples.

Results

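The comparison described here sets BV2 cells kept under oxygen glucose deprivation (OGD) with the P300 inhibitor A-485 against untreated control BV2 cells. It rests on 6 of the 9 RNA-seq libraries of the series, the 3 labelled OGD_A_485 and the 3 labelled Ctrl. The 3 OGD libraries without A-485 were used to place each gene on its course from control through OGD to OGD + A-485. Of the 54532 genes in the deposited table, 11831 had a mean of at least 1 FPKM over the 6 libraries and were tested.

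BV2 is an immortalized mouse microglial line, so each group is a culture of one line and not tissue microglia. According to the methods of the study, control cells grew in medium with 10% serum, and OGD cells were kept in low-glucose medium with 4% serum at 4% oxygen. In earlier experiments of the same study the inhibitor was given at 50 μM from the onset of OGD, which lasted 24 h, and the dose and time used for the transcriptome are not stated separately. No group among the libraries received A-485 without OGD, so the effect of A-485 in well-fed cells was not analysed here, and the effects of serum, glucose and oxygen cannot be told apart. The labels do not say whether the 3 libraries of a group came from separate cultures, so the p-values measure the spread between these libraries, which may be technical.

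P300 and its paralog CBP are coactivators that transfer acyl groups to histones at enhancers and promoters, and A-485 blocks their catalytic site. In low oxygen, the factor HIF is stabilized, recruits these coactivators and turns on genes for glucose uptake, glycolysis and oxygen sensing. Microglia are the resident macrophages of the brain. They answer stress with cytokines and chemokines, and with changes in phagocytic, lysosomal and lipid genes.

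The reads recovered on genes ranged from 12593250 to 16091038 per library, the mitochondrial share lay between 1.14% and 2.20%, and no libraries held identical values. Of 14 microglia and macrophage markers, 13 were expressed well enough to be tested, and C1qa was not. Markers of neurons, astrocytes, oligodendrocytes, fibroblasts with endothelium, and lymphocytes had no tested member, and each of these lists summed to at most 2.36 FPKM in any library. Among the markers of homeostatic microglia, Sall1 and P2ry12 were at or near 0 in the control libraries (Sall1 at 0, 0 and 0.0117 FPKM, P2ry12 at 0, 0.138 and 0.0485 FPKM). Cx3cr1 and Tmem119 were expressed there and tested (Cx3cr1 at 5.72, 6.36 and 5.69 FPKM, Tmem119 at 1.49, 1.55 and 1.17 FPKM). In bulk RNA, fewer cells of a kind and less RNA per cell cannot be told apart.

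A gene was called here when its unadjusted limma p-value was under 0.01 and its absolute log2 fold change on log2(FPKM + 0.1) was above 0.5. The study names the same numbers as its cutoffs, for another test and without saying whether its p-value was adjusted. Among the tested genes, OGD + A-485 differed from control more widely than OGD alone did. The filter took in genes high only with OGD + A-485 and could leave out genes high only with OGD. Egr2, at 1.25, 1.40 and 1.42 FPKM with OGD, was left out in this way. The shares below thus follow in part from the filter. Of the 11831 genes, 2304 were called higher (19.5%) and 2305 lower (19.5%), 39.0% in all. For OGD against control, 1469 were called higher (12.4%) and 1471 lower (12.4%), 24.8% in all. For OGD + A-485 against OGD, 1695 were called higher (14.3%) and 1683 lower (14.2%), 28.6% in all. Libraries of the 2 groups did not overlap for 8739 genes (73.9%) in the comparison of OGD + A-485 with control. The median log2 fold change over all tested genes was -0.0040 with OGD + A-485 and -0.018 with OGD. With recovered reads scaled to library totals, the median moved to -0.117 and the split became 1853 higher against 2908 lower, so that 38.9% of calls were higher. Both comparisons share the control libraries, so the courses below are descriptions.

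The 2940 genes called between OGD and control were sorted by what they did with OGD + A-485. A gene stayed changed if it was called against control in the same direction (1683 genes, 57.2%). It overshot if it was called in the opposite direction (138 genes, 4.69%). It returned if it was not called and the 95% interval of its difference from control lay within 0.5 on the log2 scale on either side of 0 (595 genes, 20.2%). The other 524 genes (17.8%) were neither called nor shown to be that close to control. Genes raised by OGD divided into 869 that stayed, 263 that returned and 97 that overshot, and genes lowered by OGD into 814, 332 and 41. Among the 869 that stayed raised, 228 were higher still than with OGD alone and 42 had come part of the way back. Of the 4609 genes called with OGD + A-485, 2788 (60.5%) had no call with OGD, with 1394 higher and 1394 lower. The filter lets in genes high only with OGD + A-485, so this share follows in part from it.

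To see which functions followed which course, 28 gene lists were described by the counts of their members and their median. The medians with OGD and with OGD + A-485 lay close together for HIF targets, glycolysis, DNA replication and ribosome biogenesis. They lay far apart for chemokines and cytokines, where the value with A-485 was nearer 0, and for lysosomal, lipid, sterol and microglial genes, where it was farther from 0.

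**Figure D1:**
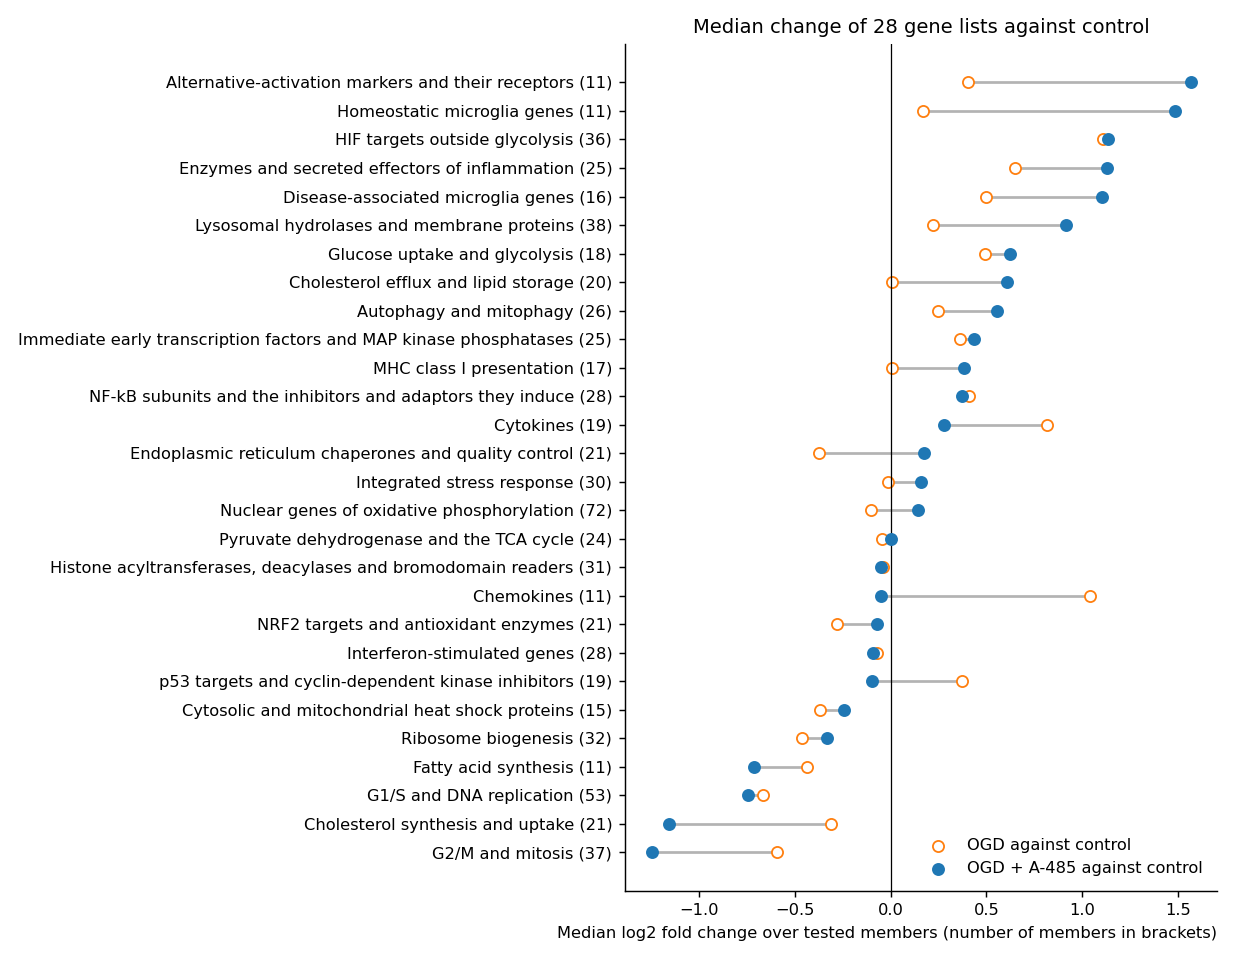
Each row is a gene list with the number of tested members in brackets, and the horizontal axis is the median log2 fold change against control, with OGD as an open orange circle and OGD + A-485 as a filled blue circle. The chemokine median moved from 1.04 to -0.05, the cholesterol median from -0.31 to -1.16 and the lysosomal median from 0.22 to 0.92, while the HIF median stood at 1.11 and 1.14.

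The hypoxia program stayed raised when A-485 was combined with OGD. Of 36 tested HIF targets outside glycolysis, 25 were called higher than control and 4 lower, with a median log2 fold change of 1.14. With OGD alone, 25 were higher and 0 lower, with a median of 1.11, and 23 members stayed changed. Selenbp1, a selenium-binding methanethiol oxidase, had 28.9, 27.2 and 27.3 FPKM in the control libraries, 199, 203 and 211 with OGD and 253, 233 and 265 with OGD + A-485. All OGD + A-485 libraries lay above all OGD libraries, and the log2 fold change against control was 3.16 (SE 0.053, adjusted p = 1.4e-09). P4ha2, a collagen prolyl hydroxylase subunit, rose by 2.90 on the log2 scale and is the one tested member with under 1 FPKM in control (means of 0.317 FPKM in control and 2.996 FPKM with OGD + A-485). Vegfa, the angiogenic growth factor, had means of 14.7, 35.6 and 41.9 FPKM in control, OGD and OGD + A-485. Bnip3, a mitophagy receptor, had means of 62.0, 148 and 119 FPKM, so that its fold change came down from 1.25 to 0.94.

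The list also held members that left this course. Egln3, the oxygen-sensing prolyl hydroxylase PHD3, had 79.4, 88.8 and 86.3 FPKM in control, 332, 333 and 339 with OGD, and 53.5, 52.6 and 54.2 with OGD + A-485. Its OGD + A-485 libraries all lay below control (log2 fold change -0.66, SE 0.045, adjusted p = 1.7e-06), whereas its paralog Egln1 stayed raised with means of 34.0, 74.1 and 90.6 FPKM. Cited2, which competes with HIF for P300 and CBP, returned, with means of 67.0, 109 and 65.4 FPKM. The other members called lower, Car12, Cxcr4 and Mxi1, did not keep the call. With the median of 50 neighbouring genes removed, Car12, a carbonic anhydrase, stood at -0.29 and Mxi1, a MYC antagonist, at -0.090. The call of Cxcr4, a chemokine receptor, was lost in 4 of 9 fits with a library left out.

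The promoters of the HIF targets, taken as the 250 bases before the RefSeq start site, were searched for a planned motif. The motif was the core of the hypoxia response element, ACGTG on either strand. It was in 15 of 30 list promoters (50%), against 22.7% of the 8301 tested genes with a promoter in the RefSeq table (GRCm38.p6). The stretches of 100 bases around it are shown for 3 members that were raised with OGD + A-485, with the matched letters in capitals. The promoter of Egln3, which overshot, also held a match. A match is a description of the sequence and not a binding site.
Bnip3, chr7:138909562-138909661, minus strand: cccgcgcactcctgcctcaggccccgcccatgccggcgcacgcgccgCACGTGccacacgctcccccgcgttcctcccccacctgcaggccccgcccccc
Fam162a, chr16:36071591-36071690, minus strand: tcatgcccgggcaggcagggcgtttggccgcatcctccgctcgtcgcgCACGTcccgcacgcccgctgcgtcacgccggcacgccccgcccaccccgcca
P4ha1, chr10:59323196-59323295, plus strand: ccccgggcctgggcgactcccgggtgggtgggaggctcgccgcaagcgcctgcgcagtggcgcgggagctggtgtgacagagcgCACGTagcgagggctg
In Bnip3 the capitals cover a palindrome that holds the core on both strands. Fam162a, a mitochondrial protein of the hypoxia response, had means of 151, 291 and 365 FPKM. P4ha1, the paralog of P4ha2, had 42.6, 57.0 and 94.3 FPKM and was called with OGD + A-485 only.

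Glucose uptake and glycolysis genes stayed raised as well. Of 18 tested members, 10 were called higher and 0 lower (median 0.63), against 9 higher and 0 lower with OGD (median 0.49), and 8 stayed changed. Slc2a3, the high-affinity glucose transporter GLUT3, had 24.4, 22.9 and 22.9 FPKM in control, 133, 142 and 135 with OGD and 161, 152 and 158 with OGD + A-485. The rise over control was 2.74 on the log2 scale (SE 0.043, adjusted p = 1.4e-09). Aldoc, an aldolase, rose by 1.51. Slc2a1, the transporter GLUT1, stayed raised at a mean of 237 FPKM, below the 318 FPKM of OGD and above the 129 FPKM of control. Pfkp, a phosphofructokinase, returned, with means of 67.3, 119 and 66.5 FPKM. Ldha, which makes lactate from pyruvate, was not called in either comparison. Its libraries read 769, 784 and 778 FPKM in control, 829, 765 and 836 with OGD and 870, 822 and 853 with OGD + A-485 (log2 fold change 0.13, adjusted p = 0.045), and the sign turned under quantile normalization.

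The enzymes downstream of glycolysis changed little. In the list of pyruvate dehydrogenase and the TCA cycle, 4 of 24 tested members were called lower and 0 higher. That is 16.7% called, below the 39.0% of all tested genes. The list median was 0.0013 and took either sign under the alternatives. Sdhb, a subunit of succinate dehydrogenase, had 61.9, 66.4 and 65.1 FPKM in control, 53.4, 51.1 and 54.2 with OGD and 39.5, 35.5 and 42.2 with OGD + A-485. Pcx, pyruvate carboxylase, overshot, with means of 16.2, 26.3 and 6.50 FPKM and a log2 fold change of -1.30 against control. Of 72 nuclear genes of oxidative phosphorylation, 12 were called higher and 3 lower, which is 20.8% called and also below 39.0%. With OGD, 1 was higher and 4 lower. The count with OGD + A-485 depended on scaling, with 5 higher and 6 lower after scaling to library totals. After quantile normalization, 7 were higher and 6 lower. Ndufv3 and Ndufb5, subunits of complex I, rose by 1.40 and 1.13 on the log2 scale.

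**Figure D2:**
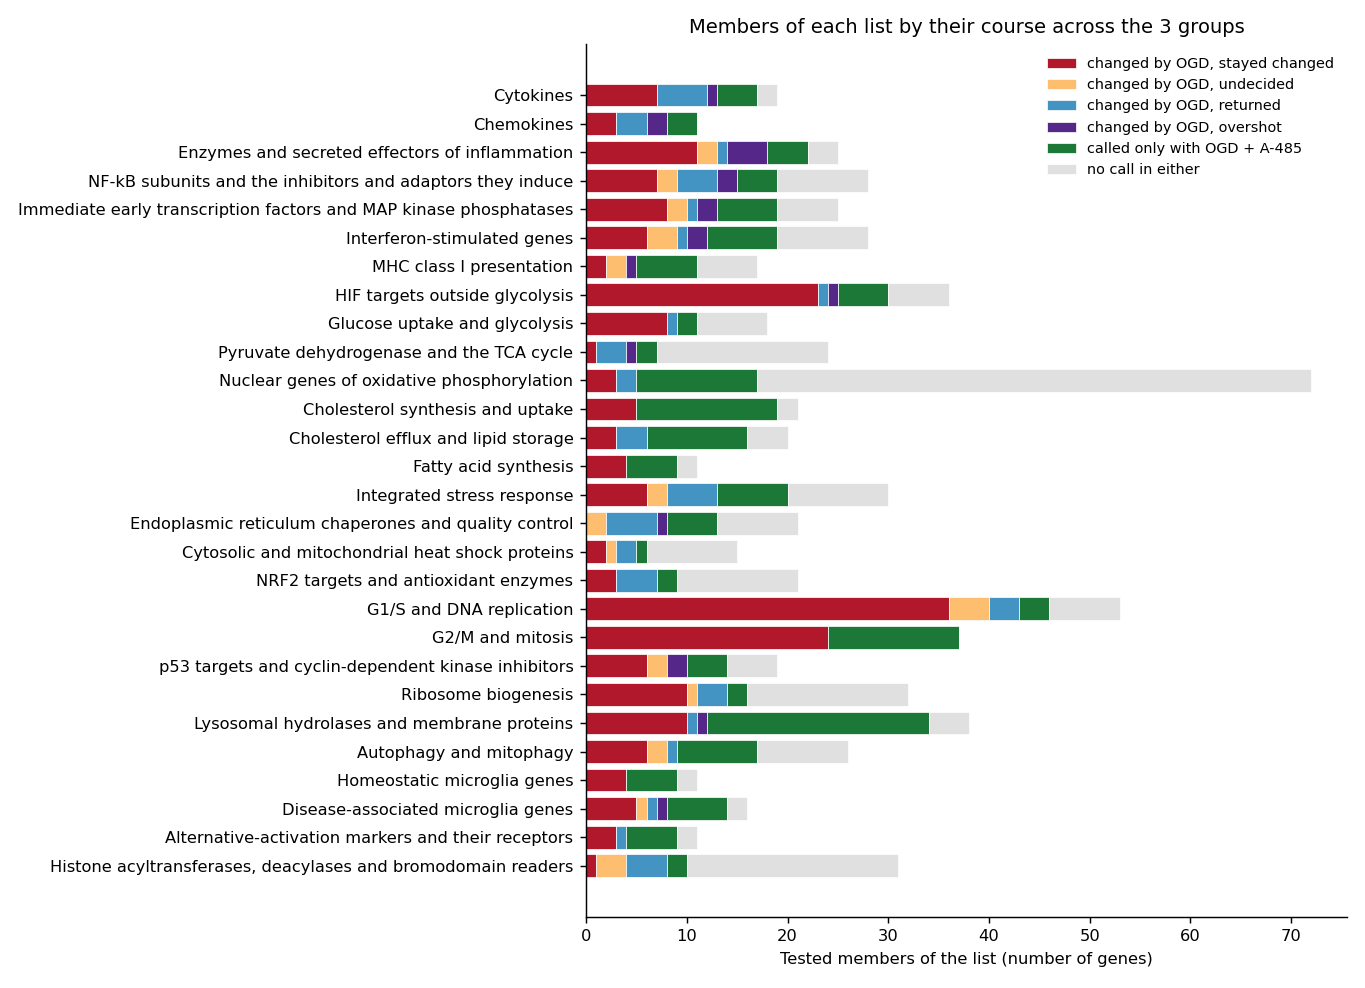
Bars count the tested members of each of the 28 lists, and colours give their course from control through OGD to OGD + A-485. Members that stayed changed fill 23 of 36 places for HIF targets, 36 of 53 for DNA replication and 24 of 37 for mitosis, whereas calls with OGD + A-485 alone fill 14 of 21 places for cholesterol synthesis and 22 of 38 for lysosomal genes.

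Proliferation genes stayed low, and the mitotic genes went lower than with OGD. All 37 tested members of the G2/M and mitosis list were called lower with OGD + A-485 (median log2 fold change -1.25), in a background of 19.5% of all genes. With OGD, 24 were called lower (median -0.60), and 25 of the 37 were lower with OGD + A-485 than with OGD. Ttk, a spindle checkpoint kinase, had 15.1, 14.8 and 15.8 FPKM in control, 8.30, 10.1 and 8.89 with OGD and 3.90, 3.67 and 3.34 with OGD + A-485, a step down at each group with no overlap. Its log2 fold change against control was -2.04 (SE 0.083, adjusted p = 9.5e-08). Ccnb1, the cyclin that starts mitosis, fell from a mean of 61.9 to 33.7 and 17.1 FPKM. Top2a, the topoisomerase that untangles chromosomes, and Ccnb2 were not called with OGD and fell by 0.97 and 1.71 with OGD + A-485.

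The DNA replication list fell by about the same measure with and without A-485. Of 53 tested members, 38 were called lower and 1 higher (median -0.75), against 43 lower and 0 higher with OGD (median -0.67), and 36 stayed changed. Ccne1, the cyclin of S-phase entry, had 45.9, 43.2 and 44.8 FPKM in control, 21.6, 19.7 and 20.6 with OGD and 11.3, 10.7 and 12.2 with OGD + A-485 (log2 fold change -1.96, SE 0.056, adjusted p = 1.7e-08). Gins1, part of the replicative helicase, fell by 1.68. Chaf1b, Cdc6 and Pola2 returned, and Ccnd3, a D-type cyclin, was the member called higher (17.1, 19.1 and 27.5 FPKM). With neighbouring medians removed, Ccnd3 was not called (0.41) and Cdc6 was called lower (-0.51). Among 19 p53 targets and cyclin-dependent kinase inhibitors, 6 were called higher and 6 lower, against 9 and 1 with OGD. Cdkn1a, which encodes the inhibitor p21, stayed raised with means of 30.0, 88.4 and 53.1 FPKM. Cdkn2c rose by 1.45, and Cdkn2b, the inhibitor p15, had 8.78, 11.1 and 8.75 FPKM in control, 12.2, 12.7 and 12.1 with OGD and 2.26, 1.91 and 1.75 with OGD + A-485 (log2 fold change -2.22, adjusted p = 3.1e-07).

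A motif of mitotic promoters, the cell cycle homology region written as TTTGAA on either strand, was looked for after the values had been seen. It was in 9 of 30 promoters of the mitosis list (30%), against 10.4% of all 8301 promoters. Stretches of 100 bases are shown for 3 members that fell with OGD + A-485, with matches in capitals.
Mki67, chr7:135716425-135716524, minus strand: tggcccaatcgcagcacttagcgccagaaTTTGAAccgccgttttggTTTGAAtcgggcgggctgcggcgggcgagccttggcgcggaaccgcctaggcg
Ect2, chr3:27153940-27154039, minus strand: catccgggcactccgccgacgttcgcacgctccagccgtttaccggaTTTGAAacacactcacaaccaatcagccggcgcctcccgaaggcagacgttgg
Top2a, chr11:99024190-99024289, minus strand: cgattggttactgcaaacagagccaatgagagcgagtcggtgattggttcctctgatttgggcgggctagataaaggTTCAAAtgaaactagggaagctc
Mki67, which encodes the proliferation antigen Ki-67, had means of 67.0, 44.4 and 27.2 FPKM in the 3 groups. Ect2, a regulator of cytokinesis, had 11.4, 7.94 and 5.86 FPKM, and Top2a had 52.4, 47.8 and 26.8 FPKM.

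Ribosome biogenesis genes that were called remained below control. Of 32 ribosome biogenesis genes, 12 were called lower and 0 higher (median -0.33), against 14 and 0 with OGD (median -0.46), and 10 stayed changed. Rrp9, a U3 small nucleolar RNA protein, and Heatr1, needed for ribosomal RNA transcription, fell by 1.30 and 1.17. Both overlap an expressed gene on the opposite strand, and whether strand was used in counting is not given in the sources used here. Of 15 heat shock genes, 3 were called lower and 0 higher (median -0.25), a share near the 19.5% of all genes called lower, and 6 were lower under quantile normalization. Hsph1, an HSP110 chaperone, had 36.9, 35.8 and 36.4 FPKM in control, 19.9, 18.3 and 19.2 with OGD and 19.8, 19.996 and 20.8 with OGD + A-485, so that the OGD and OGD + A-485 libraries overlapped. Hspd1, the mitochondrial chaperonin, was 0.52 lower, just past the threshold, and was not called with neighbouring medians removed.

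Chemokines were raised with OGD and took different courses with OGD + A-485. With OGD, 8 of 11 tested members were called higher and 0 lower (median log2 fold change 1.04). With OGD + A-485, 4 were higher and 4 lower (median -0.05), with 3 members that stayed, 3 that returned and 2 that overshot. The median was 0.0218 without the first OGD + A-485 library, so its sign rests on that library. Ccl2, the main attractant of monocytes, had 405, 402 and 393 FPKM in control, 789, 790 and 737 with OGD and 349, 384 and 430 with OGD + A-485. The OGD + A-485 libraries enclosed the control libraries, and the log2 difference was -0.05 (SE 0.072, adjusted p = 0.55). Under quantile normalization Ccl2 was instead called lower than control (-0.54). Ccl7 and Ccl3 returned too, from OGD means of 370 and 5043 FPKM to 117 and 1942 FPKM, against 108 and 2225 FPKM in control, though the OGD rise of Ccl3 was not called under quantile normalization.

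Other chemokines did not return. Ccl4 and Ccl9 overshot, with log2 fold changes of 1.04 and 0.81 with OGD and -0.62 and -1.18 with OGD + A-485. Cxcl2, a neutrophil attractant, stayed raised, with 10.4, 9.06 and 9.08 FPKM in control, 64.2, 61.4 and 50.5 with OGD and 38.8, 44.9 and 57.9 with OGD + A-485 (log2 fold change 2.28, SE 0.14, adjusted p = 1.1e-06). Cxcl10, an interferon-induced attractant of T cells, fell to 0.213, 0.422 and 0.370 FPKM from 2.36, 2.03 and 2.82 in control (log2 fold change -2.55, SE 0.24). Being under 1 FPKM with OGD + A-485, Cxcl10 passed the minimum level only through control. The other 12 listed chemokines were under the minimum level.

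Cytokines split by member. Of 19 tested, 13 were called higher and 0 lower with OGD (median 0.82), and 9 were higher and 3 lower with OGD + A-485 (median 0.28). The median was 0.14 with neighbouring medians removed, 0.17 with library totals and 0.49 without the first control library. Of the 13, 7 stayed, 5 returned and 1 overshot. Of the 19 tested, 1 was under 1 FPKM in control, and 2, Il6 and Csf2, were under 1 FPKM with OGD + A-485. These passed the minimum level only through the other group, so the lower calls of Il6 and Csf2 follow in part from the filter. Both members of the interleukin-1 agonist pair went up. Il1a had 1.14, 1.10 and 1.001 FPKM in control, 5.09, 7.86 and 6.66 with OGD and 18.8, 19.8 and 21.1 with OGD + A-485, so that its log2 fold change grew from 2.47 to 4.08 (SE 0.14, adjusted p = 4.0e-08). Il1b had means of 3.12, 10.9 and 13.4 FPKM, while Il1rn, the antagonist of their receptor, met the rule for a return with means of 33.9, 59.8 and 26.6 FPKM and was called lower with neighbouring medians removed (-0.57).

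Tnf, the cytokine after which the TNF pathway is named, had 118, 121 and 121 FPKM in control, 181, 173 and 176 with OGD and 102, 98.1 and 109 with OGD + A-485. It met the rule for a return, with a log2 difference of -0.22 (SE 0.045, adjusted p = 0.0021), although all 3 OGD + A-485 libraries lay below control and its OGD rise was not called under quantile normalization (0.48). Osm, a cytokine of the interleukin-6 family, returned at 13.6, 12.9 and 12.6 FPKM against 13.4, 13.4 and 12.9 in control. Il6 was not called with OGD (log2 fold change 0.61), except with limma-voom, a pseudocount of 1, the replicate block or neighbouring medians removed. It went below control with OGD + A-485, at 0.310, 0.521 and 0.371 FPKM against 3.42, 3.27 and 3.05 (log2 fold change -2.76, SE 0.21, adjusted p = 3.5e-06). Csf2, which encodes GM-CSF, overshot, with means of 2.13, 4.45 and 0.949 FPKM. Csf3, which encodes G-CSF, stayed raised at 32.9 FPKM, between 20.8 in control and 88.1 with OGD, and was not called with neighbouring medians removed (0.45).

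**Figure D3:**
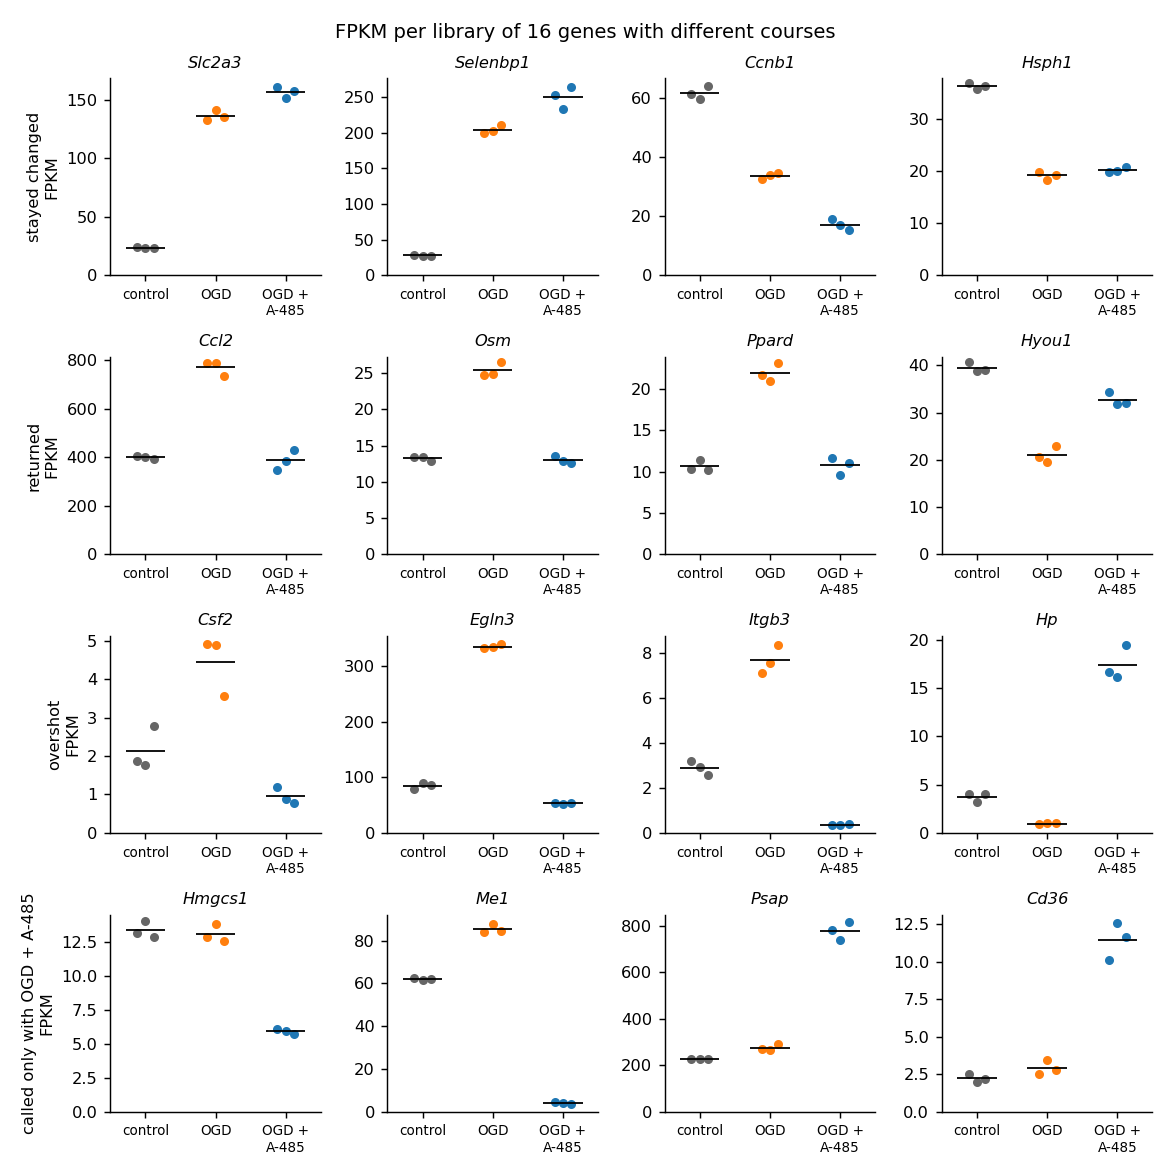
Each panel shows the FPKM of the 3 libraries of each group as points and their mean as a line, on a linear axis that starts at 0, for 16 genes in rows by course. Ccl2 stands at means of 400, 772 and 387 FPKM in control, OGD and OGD + A-485, Egln3 at 84.8, 335 and 53.4 FPKM and Slc2a3 at 23.4, 137 and 157 FPKM.

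Enzymes and secreted effectors of inflammation took several courses. Of the 18 called with OGD, 11 stayed changed, 1 returned and 4 overshot. The share that stayed was near the 57.2% of all genes called with OGD. Of 25 tested members, 14 were called higher and 5 lower (median 1.13), against 17 and 1 with OGD (median 0.65). The median was 0.73 under quantile normalization and 0.48 over all 29 members without a filter. Arg1 and Mmp13 were under 1 FPKM in control and passed the minimum level, a mean of 1 FPKM over the control and OGD + A-485 libraries, only through the latter. Arg1, which encodes arginase and competes with nitric oxide synthase for arginine, had 0.672, 0.409 and 0.305 FPKM in control, 9.80, 11.4 and 9.19 with OGD and 103, 105 and 118 with OGD + A-485. Its log2 fold change grew from 4.23 to 7.64 (SE 0.20, adjusted p = 1.2e-08). Nos2, which encodes that synthase and marks classical activation, had 120, 117 and 115 FPKM in control, 587, 643 and 627 with OGD and 284, 266 and 293 with OGD + A-485. It thus stayed above control by 1.26 on the log2 scale (SE 0.050, adjusted p = 8.6e-08) and stood 1.14 below OGD.

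Mmp12, the macrophage elastase, stayed raised at 25.6, 26.7 and 29.0 FPKM against 27.8, 31.2 and 27.99 with OGD and 1.64, 1.54 and 1.46 in control. Ptgs2, the inducible cyclooxygenase, stayed raised at a lower level than with OGD, with means of 17.4, 185 and 64.3 FPKM. Ptges, the prostaglandin E synthase that works after it, overshot with means of 11.5, 17.5 and 3.99 FPKM. The coagulation starter F3 and the plasminogen activator Plau overshot too, and Edn1, which encodes the vasoconstrictor endothelin, returned at 1.28, 1.07 and 1.46 FPKM against 1.47, 1.25 and 1.10 in control and 7.12, 8.73 and 7.21 with OGD. Acod1, which makes itaconate, and Cybb, the catalytic subunit of the phagocyte oxidase, rose to 668 and 83.5 FPKM from 98.4 and 7.78 in control.

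The NF-κB list, which holds the subunits and the inhibitors they induce, had 11 of 28 members called higher and 2 lower (median 0.37), against 12 and 3 with OGD (median 0.41). That is 46.4% called with OGD + A-485, near the 39.0% of all genes, and 53.6% with OGD, against 24.8% of all genes. The inhibitors took different courses. Nfkbia returned, at 99.5, 103 and 106 FPKM against 97.2, 92.1 and 95.2 in control and 150, 145 and 142 with OGD. Tnfaip3, the ubiquitin-editing enzyme A20, stayed raised, with log2 fold changes of 1.97 with OGD and 2.52 with OGD + A-485. Tnip3, an A20-binding partner, rose by 4.63 and Irak3, a brake on Toll-like receptor signalling, by 5.90, from 0.122, 0.172 and 0.202 FPKM to 15.4, 16.1 and 15.5. Both were under 1 FPKM in control. They passed the minimum level only through their OGD + A-485 libraries, so their place among the 11 follows from the filter. Irak3 overlaps Tmbim4 on the opposite strand, which had a mean of 27.4 FPKM. An outline of the κB site, on either strand, was in 18 of 23 promoters of the NF-κB list (78.3%), against 61.5% of all promoters. Among 25 immediate early genes, 11 were called higher and 5 lower (median 0.44, and 0.13 over all 31 members without a filter). The largest falls in the list were in Egr3 (-2.15) and Nr4a1 (-1.56), both activity-induced transcription factors. Egr3, with a mean of 0.658 FPKM with OGD + A-485, passed the minimum level only through control. Myc, called higher with a mean of 0.862 FPKM in control, passed only through OGD + A-485.

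The endoplasmic reticulum chaperones called with OGD were all lower, and most of the list was not called with OGD + A-485. With OGD, 8 of 21 were called lower and 0 higher (median -0.37). With OGD + A-485, 6 were higher and 0 lower (median 0.17, and -0.035 under quantile normalization), and 5 returned. That is 28.6% called, below the 39.0% of all genes, and up to 3 were called lower under the alternatives run. Hyou1, a chaperone of the HSP110 type, had 40.7, 38.7 and 39.0 FPKM in control, 20.6, 19.6 and 22.8 with OGD and 34.3, 31.8 and 32.1 with OGD + A-485. It met the rule for a return while all its OGD + A-485 libraries lay below control (log2 difference -0.27, adjusted p = 0.0030). Dnajb9 and Herpud1, both induced by the unfolded protein response, were called with OGD + A-485 only and rose by 1.28 and 0.91. Dnajc3, an inhibitor of the kinase PERK, overshot with means of 4.96, 3.03 and 8.37 FPKM, but was not called with neighbouring medians removed (0.33).

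The integrated stress response list had 9 of 30 members called higher and 4 lower, the same counts as with OGD, and 5 returned. The 43.3% called stands against 39.0% of all genes with OGD + A-485 and 24.8% with OGD. The CEBP-ATF response element, TGATGNAAT on either strand, was in 4 of 26 promoters of the list (15.4%), against 0.434% of all promoters. Ppp1r15a, the phosphatase subunit GADD34, stayed raised with means of 6.47, 11.5 and 15.9 FPKM, and Atf5, a transcription factor whose gene overlaps Nup62 on the opposite strand, rose by 1.67. Phgdh, which opens serine synthesis, returned with means of 249, 170 and 256 FPKM, and stood at -0.44 under quantile normalization. Of 21 NRF2 targets and antioxidant genes, 3 were called higher and 2 lower, 23.8% in all and below the 39.0% of all genes. With OGD, 1 was higher and 6 lower, and 4 of these 7 returned. Those were Gsr, Taldo1, G6pdx and Txnrd1, which supply or use NADPH. Gclm, a subunit of the enzyme of glutathione synthesis, stayed low (log2 fold change -1.23), and Osgin1 stayed high (1.08).

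By the rule used for naming genes, the overshoots with the largest change on both sides were Lmcd1, Odf3l1 and Itgb3 among genes raised by OGD, and Hp, Rnase4 and Marcks among genes lowered by it. Itgb3, the integrin β3 subunit, had 3.18, 2.95 and 2.55 FPKM in control, 7.12, 7.54 and 8.35 with OGD and 0.348, 0.365 and 0.388 with OGD + A-485. Lmcd1, a LIM domain protein, had 1.86, 2.39 and 1.78 FPKM in control, 5.77, 6.66 and 5.96 with OGD and no read with OGD + A-485, which is at least 17.3-fold lower than control with a floor of 3 reads per library. Odf3l1 had means of 2.02, 6.02 and 0.135 FPKM, and its OGD rise was not called in 5 of 9 fits with a library left out. As overshoots raised by OGD, these 3 genes went from the top of the 3 groups to the bottom by definition. All 3 were under 1 FPKM with OGD + A-485 and passed the minimum level only through control.

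Hp, the haemoglobin scavenger haptoglobin, had 4.06, 3.15 and 3.999 FPKM in control, 0.8805, 1.004 and 1.02 with OGD and 16.7, 16.1 and 19.4 with OGD + A-485 (log2 fold change 2.20, SE 0.12, adjusted p = 3.9e-07). Marcks, a membrane-bound substrate of protein kinase C, had means of 3.14, 1.13 and 13.7 FPKM. Rnase4, a secreted ribonuclease, had means of 0.689, 0.167 and 20.6 FPKM, overlaps Ang on the same strand, and lies where the median of 50 neighbouring genes was 0.53. Rnase4 was under 1 FPKM in control and passed the minimum level only through its OGD + A-485 libraries. By the rule that picked them, the courses of Hp, Marcks and Rnase4 ran opposite to those of Itgb3 and Lmcd1. Tlr2, the receptor for bacterial lipoproteins, was a further case, with means of 13.4, 8.84 and 47.5 FPKM, and Spp1, which encodes osteopontin, went the other way with 1828, 3034 and 1055 FPKM, its OGD rise not being called under quantile normalization (0.28).

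The returns with the largest OGD change were Edn1, Upp1 and Tnfrsf18 among genes raised by OGD, and Rab3il1, Pgbd5 and Mat2a among genes lowered by it. Upp1, uridine phosphorylase, had 5.88, 6.62 and 6.33 FPKM in control, 24.1, 27.7 and 28.2 with OGD and 6.60, 7.30 and 6.90 with OGD + A-485 (log2 difference 0.14, SE 0.074, adjusted p = 0.12). Tnfrsf18, the costimulatory receptor GITR, had means of 1.86, 6.69 and 1.65 FPKM, but its 50 neighbouring genes had a median of -0.61, and with that removed it stood 0.46 above control. Mat2a, which makes S-adenosylmethionine, had 48.0, 45.8 and 53.6 FPKM in control, 20.3, 18.3 and 21.5 with OGD and 39.0, 41.2 and 41.6 with OGD + A-485. Its OGD + A-485 libraries still lay below control (log2 difference -0.27, adjusted p = 0.0094). Rab3il1, a Rab exchange factor, and Pgbd5 stood at 1.71 and 3.49 FPKM with OGD + A-485 against 1.78 and 3.05 FPKM in control.

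Cholesterol synthesis fell with OGD + A-485 far more than with OGD. Of 21 tested members, 19 were called lower and 0 higher (median log2 fold change -1.16), against 5 lower and 0 higher with OGD (median -0.31), and 14 were called with OGD + A-485 only. The list summed to between 312 and 320 FPKM in the control libraries, 264 to 274 with OGD and 140 to 160 with OGD + A-485. Idi1, isopentenyl diphosphate isomerase, had 18.4, 18.0 and 20.6 FPKM in control, 9.66, 10.1 and 9.92 with OGD and 2.27, 2.47 and 2.30 with OGD + A-485 (log2 fold change -2.96, SE 0.063, adjusted p = 4.9e-09). It lies on chromosome 13, where 50 neighbouring genes had a median of -0.37. Acat2, the cytosolic thiolase that starts the pathway, fell by 2.09.

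Sqle and Ebp were the members with no call, at -0.12 and -0.22. With the median of neighbouring genes removed, the list median was -1.24. Of the 21 tested members, 1 was under 1 FPKM with OGD + A-485 and passed the minimum level only through control. The sterol regulatory element, TCACNCCAC on either strand, was in 1 of 16 list promoters (6.25%), against 0.964% of all promoters. That promoter belongs to Hmgcs1, an early synthase of the pathway, which went from means of 13.4 and 13.1 FPKM to 5.93 FPKM. A stretch of 100 bases around the match is shown, with the match in capitals.
Hmgcs1, chr13:119690168-119690267, plus strand: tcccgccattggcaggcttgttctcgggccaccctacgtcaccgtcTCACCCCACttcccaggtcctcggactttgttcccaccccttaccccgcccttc

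Fatty acid synthesis fell with it, while lipid uptake, storage and efflux rose. Of 11 tested fatty acid synthesis genes, 8 were called lower and 1 higher (median -0.71), against 4 and 0 with OGD (median -0.44). Me1, the malic enzyme that supplies NADPH, had 62.7, 61.7 and 62.3 FPKM in control, 83.9, 87.8 and 84.4 with OGD and 4.36, 3.90 and 3.69 with OGD + A-485. This fall, -3.94 on the log2 scale (SE 0.057, adjusted p = 1.2e-09), was far larger than the spread of the libraries. Acsl3, an acyl-CoA synthetase, fell by 2.18. Elovl1, an elongase, was the member that rose.

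Of 20 tested genes of cholesterol efflux and lipid storage, 11 were called higher and 2 lower (median 0.61), against 4 and 2 with OGD (median 0.01), and 10 were called with OGD + A-485 only. Cd36, a scavenger receptor for fatty acids, had 2.502, 1.99 and 2.17 FPKM in control, 2.49, 3.42 and 2.81 with OGD and 10.1, 12.6 and 11.7 with OGD + A-485. Cpt1a, which brings fatty acids into mitochondria, rose by 1.93. Plin2, a coat protein of lipid droplets, had means of 43.0, 49.9 and 160 FPKM, and Apoe, the lipid carrier, 166, 258 and 558 FPKM. Ppard, a fatty acid sensor, returned, with means of 10.6, 21.97 and 10.8 FPKM.

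Lysosomal genes rose as a group. Of 38 tested members, 33 were called higher and 0 lower (median log2 fold change 0.92), against 11 and 1 with OGD (median 0.22), and 22 were higher with OGD + A-485 than with OGD. The list summed to between 3594 and 3665 FPKM in control, 4125 and 4328 with OGD and 7162 and 7654 with OGD + A-485. Psap, the precursor of the saposins, had 227, 229 and 226 FPKM in control, 271, 266 and 291 with OGD and 783, 739 and 818 with OGD + A-485 (log2 fold change 1.78, SE 0.051, adjusted p = 1.7e-08). Ctsh, a cathepsin, passed the minimum level only through its OGD + A-485 libraries, at 11.04, 10.7 and 10.8 FPKM against 0.715, 0.562 and 0.453 in control. Ctsd, the main aspartic protease, had means of 152, 200 and 433 FPKM.

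The E-box bound by TFEB-type factors, TCACGTGA, which contains ACGTG, was looked for after the values had been seen. It was in 4 of 28 lysosomal promoters (14.3%), against 1.75% of all promoters. Of 26 autophagy and mitophagy genes, 14 were called higher and 0 lower (median 0.55), against 8 and 1 with OGD (median 0.25). Tfeb itself had 2.17, 2.46 and 2.08 FPKM in control, 1.65, 1.68 and 1.71 with OGD and 5.47, 4.25 and 4.76 with OGD + A-485. Gabarap, an autophagosome protein, rose by 1.07. With neighbouring medians removed, the autophagy median was 0.35.

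Microglial and macrophage genes rose alongside. All 13 tested markers of these cells were called higher than control with OGD + A-485 (median 1.42), against 4 with OGD (median 0.42). Aif1 was under 1 FPKM in control and passed the minimum level only through its OGD + A-485 libraries, and Cd68 was not called under quantile normalization (0.15). The list of 14 summed to between 785 and 803 FPKM in control, 993 and 1019 with OGD and 1718 and 1777 with OGD + A-485. Csf1r, the receptor on which microglia depend, had 23.9, 25.4 and 23.4 FPKM in control, 44.2, 43.9 and 45.7 with OGD and 133, 128 and 130 with OGD + A-485 (log2 fold change 2.43, SE 0.041, adjusted p = 1.4e-09). Spi1, which encodes the lineage factor PU.1, had means of 43.9, 38.5 and 97.9 FPKM. Cd68 stands both here and in the lysosomal list, and the part of the microglial rise in the lysosomal result was not tested.

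Of 22 homeostatic microglia genes, 11 were tested, and 8 were called higher and 1 lower (median 1.48). Of the 11, 2 were under 1 FPKM in control and passed through their OGD + A-485 libraries. Those were C1qb and C1qc, chains of the complement starter C1q. C1qb had no read in control or OGD and 13.5, 12.7 and 12.9 FPKM with OGD + A-485, at least 68.5-fold higher than control with a floor of 3 reads per library. C1qc was at least 38.8-fold higher, at 3.93, 4.46 and 4.06 FPKM. With these at their bounds the median was still 1.48, and over all 22 members without a filter it was 1.29. Cx3cr1, the fractalkine receptor, stayed raised and rose further, with means of 5.92, 15.7 and 27.8 FPKM. Tmem119, a marker of resident microglia, was not called, at 1.49, 1.55 and 1.17 FPKM in control and 1.33, 1.45 and 1.20 with OGD + A-485.

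Of 16 disease-associated microglia genes, 9 were called higher and 3 lower (median 1.11), against 8 and 0 with OGD (median 0.50). Over all 18 members without a filter the median was 0.57. Lyz2, the macrophage lysozyme, had 41.7, 37.8 and 39.8 FPKM in control, 95.3, 89.9 and 94.6 with OGD and 1631, 1687 and 1775 with OGD + A-485 (log2 fold change 5.41, SE 0.050, adjusted p = 7.2e-11). Igf1, a growth factor, rose by 3.52, from a mean of 1.48 to 18.1 FPKM. Of the 3 members called lower, Spp1 fell most (log2 fold change -0.79) and overshot. Of 11 tested alternative-activation markers and receptors, 8 were called higher and 0 lower (median 1.57, and 0.93 over all 17 members without a filter), and 2 of the 11 were under 1 FPKM in control. Those were Msr1, a scavenger receptor, and Mgl2, a lectin, which reached means of 8.94 and 5.69 FPKM. Mrc1, Chil3, Retnla and Cd163, the best known markers of the list, did not reach the minimum level. Mrc1 nevertheless read 1.10, 1.24 and 0.991 FPKM with OGD + A-485, against 0, 0 and 0.0194 in control and 0 in each OGD library.

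Among all tested genes, the 5 annotated genes with the largest rise were Cyp2c66, Vnn3, Arg1, Chrna9 and C1qb. Cyp2c66, a cytochrome P450, had no read in the control and OGD libraries and 29.2, 32.2 and 30.8 FPKM with OGD + A-485, at least 289-fold higher than control. Vnn3, a pantetheinase, had 1 read over the control libraries and 2138 over the OGD + A-485 libraries, a ratio of 2089 (95% exact interval 375 to 82554.5, counting error only). Chrna9, a nicotinic receptor subunit, had 1 and 1912 reads, a ratio of 1868 (335 to 73832). Genes with close paralogs, such as Cyp2c66 and Lyz2, may share reads with them.

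The 5 largest falls were Ighj1, Ighd4-1, Ighj3, Pdcd1 and Ifitm3. The first 3 are short immunoglobulin segments with at most 17 reads in a library, and Ighd4-1 with at most 3 reads gives no fold. Pdcd1, which encodes the checkpoint receptor PD-1, had 13.03, 13.6 and 13.3 FPKM in control, 14.9, 13.7 and 14.7 with OGD and 0.177, 0.0328 and 0.144 with OGD + A-485 (log2 fold change -6.01, SE 0.23, adjusted p = 7.0e-08). Ifitm3, an interferon-induced membrane protein that blocks virus entry, had 75.7, 76.7 and 70.5 FPKM in control, 74.7, 69.8 and 67.6 with OGD and 0.808, 1.31 and 1.33 with OGD + A-485. Neither was called with OGD.

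The genes of the inhibited enzymes themselves were not called. Ep300 had 13.6, 14.6 and 14.3 FPKM in control, 12.6, 12.96 and 12.97 with OGD and 15.4, 15.0 and 13.3 with OGD + A-485 (log2 fold change 0.04, SE 0.060, adjusted p = 0.58), and the groups overlapped. Crebbp, which encodes CBP, stood at 6.79, 7.06 and 5.97 FPKM against 5.41, 5.44 and 5.50 in control (log2 fold change 0.27, SE 0.068, adjusted p = 0.0064). Of 31 histone acyltransferases, deacylases and bromodomain readers, 2 were called higher and 1 lower (median -0.05), against 6 and 2 with OGD, and 4 returned. Ncoa1 rose by 0.80 and Hdac3, a deacetylase, fell by 0.62.

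Position on the genome moved with the result. The median log2 fold change of OGD + A-485 against control was -0.34 on chromosome 13, where 35.5% of genes were called lower and 11.2% higher, and 0.29 on chromosome 14, where 36.9% were called higher and 10.6% lower. It was -0.19 on chromosomes 9 and 19 and 0.14 on chromosome 3. With OGD alone, the medians of chromosomes 13 and 14 were 0.018 and 0.030. Over 50 neighbouring genes, the running median ranged from -0.76 to 0.67, and it passed 0.3 for 580 and -0.3 for 1078 of 11797 genes. Of the 4609 calls, 82.0% were also made with this running median removed, and the counts became 2175 higher and 2164 lower.

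**Figure D4:**
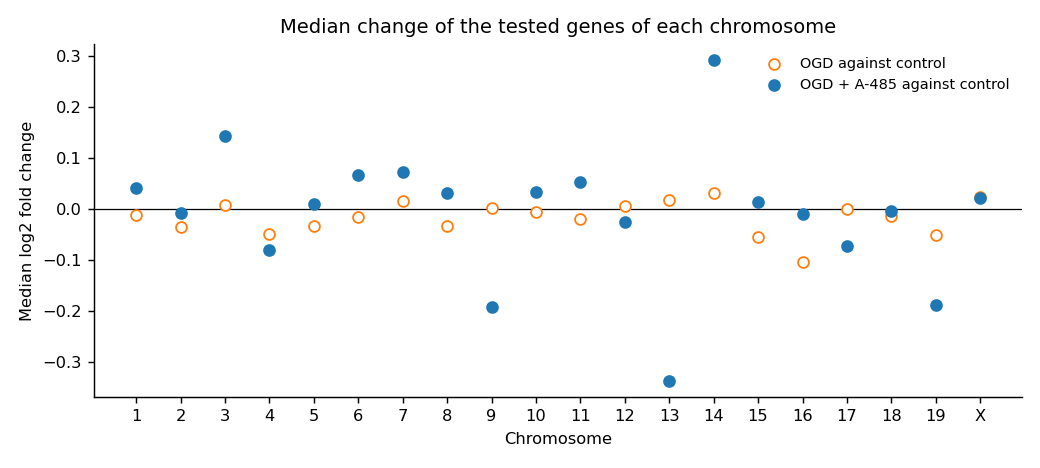
Points give the median log2 fold change against control of the tested genes of each chromosome, with OGD as open orange circles and OGD + A-485 as filled blue circles. The OGD points lie between -0.10 and 0.030, and the OGD + A-485 points between -0.34 on chromosome 13 and 0.29 on chromosome 14.

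List medians kept their sign with the running median removed, except that of the TCA list, whose median was 0.0013 before and -0.045 after. The cause of the shifts by position was not tested. Members in shifted neighbourhoods include Idi1, Hmgcs1, Ccnb1, Heatr1, Edn1 and Pfkp on chromosome 13, Acod1, Rnase4 and Dnajc3 on chromosome 14, Car12, Rrp9, Me1 and Ccnb2 on chromosome 9, and Mxi1 on chromosome 19, and their fold changes hold that shift.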

How the data were processed

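RNA of BV2 cells was sequenced in 9 libraries, 3 each of control, OGD and OGD + A-485, grouped by the sample labels. The authors counted reads on genes with featureCounts (1.5.0-p3, per the submitters' processing notes, which name GRCm38) and deposited FPKM for 54532 genes. The aligner is not given in the sources used here. Undoing the length and library scaling of the FPKM gave whole reads for 100% of values (tolerance 0.05 reads), and the library scaling found this way is a median-of-ratios size factor. Deposited coordinates equalled those of GENCODE M21 (GRCm38) for 98.3% of the identifiers present in both.

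A filter at a mean of 1 FPKM over the 6 libraries left 11831 genes. Their values, as log2(FPKM + 0.1), entered a linear model of the 3 group means over 9 libraries in limma 3.58.1 (R 4.3.3) with a trended prior variance. Adjusted p-values are Benjamini-Hochberg over these genes. The pseudocount shrinks the fold changes of genes with low FPKM. The study itself used a count-based test with the same numerical cutoffs. The script was tested on simulated data. RefSeq promoters were matched by symbol for 8301 genes (70.2%), taking the start nearest the deposited gene start. Python 3.11.15, numpy 2.4.6, pandas 2.3.3 and matplotlib 3.10.9 were used. Replicates differed by more than counting noise, and intervals and floors cover counting error only.

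The members and gene lists were chosen with earlier results of these data known. Genes were named by rule: the 5 largest rises and falls among called, non-overlapping annotated genes, the 2 largest changes in each list, 3 overshoots and 3 returns in each direction, and Ep300, Crebbp, Tnf, Nos2 and Ldha. Every other list member named, the promoters printed, and the TFEB-type and cell cycle motifs were chosen after the values were seen. Alternatives were pseudocounts, filters, quantile and library-total scaling, a fit of the 6 libraries, a replicate block, no variance trend, limma-voom on recovered reads, an adjusted threshold, subtraction of a running median over 50 neighbouring genes, and each library left out.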

Additional observations from a re-analysis of the deposited data

How the results depend on the processing

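Under every alternative run, the counts of genes called higher (1853 to 3125), lower (1992 to 2908), stayed (1370 to 1885), returned (527 to 645), overshot (95 to 171) and called with OGD + A-485 only (2564 to 3891) stayed within 1.5 times the values reported. With each library left out in turn, they lay at 2198 to 2315, 2219 to 2307, 1605 to 1666, 527 to 645, 114 to 138 and 2684 to 2859. Replicate numbers did not pair the libraries (mean correlation of same-numbered deviations across genes -0.0224, and 0.0112 for different numbers), and with the replicate block 2289 genes were higher, 2295 lower, 1663 stayed, 580 returned, 133 overshot and 2788 were called with OGD + A-485 only. The fit of the 6 libraries gave no courses, since these need OGD. Among the genes named, no called gene changed sign, and 14 that were not called did. Under quantile normalization Ldha stood at -0.18, Ccl3 at 0.044, Ccl7 at -0.062, Nfkbia at -0.017 and Phgdh at -0.44. With library totals Ep300 stood at -0.074, Ccl7 at -0.015, Phgdh at -0.079 and Ppard at -0.10, and with limma-voom Edn1 stood at 0.00063. With neighbouring medians removed Ldha stood at -0.081, Ep300 at -0.051, Edn1 at 0.31, Tnfrsf18 at 0.46, Rab3il1 at 0.034, Pfkp at 0.36, Ppard at -0.058 and Tmem119 at 0.030. With single libraries left out Ep300 ranged from -0.0047 to 0.105, Edn1 from -0.104 to 0.11, Rab3il1 from -0.122 to 0.024, Ccl2 from -0.129 to 0.022, Osm from -0.056 to 0.00085, Pfkp from -0.060 to 0.021, Ppard from -0.047 to 0.095 and Tmem119 from -0.185 to 0.00039. Calls were lost for Ighd4-1 with limma-voom (-2.05), Cxcr4 with a pseudocount of 1 (-0.45), Cd68 under quantile normalization (0.15), and Hspd1 (-0.36), Car12 (-0.29), Mxi1 (-0.090), Ccnd3 (0.41), Csf3 (0.45) and Dnajc3 (0.33) with neighbouring medians removed. Without single libraries, the calls of Cxcr4 (4 of 9 fits) and Rsad2 (1 of 9) were lost. Calls were gained for Ccl2 under quantile normalization (-0.54), and for Cdc6 (-0.51) and Il1rn (-0.57) with neighbouring medians removed. List members named beside the rule were run through these alternatives after the data were seen. The cause was not tested. With 3 libraries a group the median SE of a log2 fold change was 0.0803, which limits what could be told apart from control.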

Other observations

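Antigen presentation and interferon genes followed neither the hypoxia nor the chemokine course. Of 17 tested genes of MHC class I presentation, 8 were called higher and 1 lower than control with OGD + A-485 (median log2 fold change 0.38, and 0.16 over all 19 members without a filter), against 3 and 2 with OGD (median 0.01), and 6 were called with OGD + A-485 only. Psme2, a proteasome activator, had 14.6, 8.87 and 11.8 FPKM in control, 8.95, 11.6 and 11.6 with OGD and 32.9, 35.8 and 44.0 with OGD + A-485, and lies on chromosome 14 where neighbouring genes had a median of 0.44. H2-Q4, a class Ib molecule with close paralogs, overshot with means of 6.52, 10.3 and 3.23 FPKM.

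Of 28 tested interferon-stimulated genes, 9 were called higher and 6 lower (median -0.09, and -0.21 with library totals). That is 53.6% called, against 39.0% of all genes. With OGD, 5 were higher and 7 lower (median -0.07), and 3 of the 28 were under 1 FPKM in control. Slfn2, which holds immune cells in quiescence, had 11.5, 12.6 and 11.1 FPKM in control, 20.4, 19.5 and 19.4 with OGD and 79.8, 86.4 and 87.3 with OGD + A-485. Trim30a, a feedback inhibitor of Toll-like receptor signalling, rose by 2.77. Antiviral genes such as Ifit2, Rsad2 and Usp18 stayed low, with log2 fold changes of -0.90, -0.93 and -1.01 (Rsad2 was not called without control replicate 2), and Isg20, an exonuclease, overshot with means of 4.79, 8.16 and 1.24 FPKM.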
